A study of Homo sapiens with 70 samples.

Results

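The genes described here are 34 direct transcriptional targets of the tumour suppressor p53, taken as a list of symbols and matched to the Ensembl identifiers of 3 tables of gene counts. All 34 were found among the 44503 counted genes. The tables come from bulk RNA-seq of IMR90 cells, a fetal lung fibroblast line, and of H1299 cells, a non-small cell lung carcinoma line. All IMR90 groups carry the inducible oncogene ER:HRAS G12V in the vector pLNCX2, so the proliferating controls carry it too, and oncogene-induced senescence (OIS, written RIS in the labels) followed 6 days of 100 nM 4-hydroxytamoxifen (4OHT). In the first experiment proliferating cells without 4OHT (Grow) and OIS cells carried either the empty vector pMSCV miR v or a hairpin against HMGA1 in the same vector (Grow-shA1 and OIS-shA1), with 8 libraries per group. In the second experiment the cells carried empty vectors (Grow-v-v and OIS-v-v), pSuper shCEBPB (OIS-shCEBPB), pMSCV miR p53 (OIS-shp53) or both hairpins (OIS-shCEBPB-shp53), with 5 libraries per group. Each group with 1 hairpin carried the other vector empty, and Grow-v-v is labelled day 0. The third experiment holds 7 libraries of H1299 with the empty vector pMSCV miR v and 6 with the HMGA1 hairpin (H1299-shA1). H1299 cells make no p53 protein. The hairpins were expressed stably from retroviral vectors, and each gene was targeted by 1 hairpin in the groups compared here. The labels of OIS-shCEBPB-shp53 write its first vector as pSuper CEBPB, without the letters sh, and CEBPB mRNA stood at 32.5 ± 4.18 CPM there against 35.5 ± 6.56 CPM in OIS-shCEBPB and 295 ± 25.7 CPM in OIS-v-v (CPM, counts scaled to a common effective library size, mean ± SD, n = 5).

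p53 is a transcription factor that is kept scarce by its own target MDM2, a ubiquitin ligase, and that accumulates when DNA damage or oncogene signalling stops its degradation. It binds a palindromic element made of a pair of decamers and activates genes that halt the cell cycle, repair DNA, limit oxidative stress or start apoptosis. In fibroblasts driven into senescence by RAS, p53 and its target CDKN1A, which encodes the cyclin-dependent kinase inhibitor p21, form one of the known arms of the arrest.

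Matches to the p53 element near the start of the gene were counted as a description of the list. The list names direct targets of p53, so a share above that of all genes is no independent support for it. The window ran 2500 bases to each side of the 5′ end of the counted gene model in hg19. The element was searched on both strands as 2 adjoining decamers, each with the core CNNG in which N is A or T, with up to 2 mismatches to the purines before and the pyrimidines after each core. Window and mismatches were set with results of these data known. At least 1 match was found in 14 of the 34 genes (41.2%) and in 1072 of all 44503 genes (2.4%), at least 1 with no more than 1 mismatch in 5 genes (14.7%) and in 186 genes (0.4%), and a match without a mismatch in 2 genes (5.9%), ZMAT3 and PLK2, and in 31 genes (0.1%). The matches are shown for 9 genes on which the results below turn. They are read from the hg19 reference on the strand of the gene, 5′ to 3′, with the element in capitals, and the coordinates are those of the capitals.
CDKN1A, upstream of the gene, chr6:36644226-36644245: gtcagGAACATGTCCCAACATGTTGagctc
BTG2, upstream of the gene, chr1:203272770-203272789: gggtcACGCATGTTCAGGCATGCATggaat
FAS, in an exon, chr10:90751066-90751085: ctcctGGACAAGCCCTGACAAGCCAagcca
SPATA18, in an intron, chr4:52918123-52918142: aggaaGGACATGTGTGTACATGCCCttgtc
EDA2R, in an intron, chrX:65858405-65858424: cttgaGGGCAAGTCAGGGCTTGTGTaaaga
ZMAT3, in an intron, chr3:178787976-178787995: tcataAAACAAGTCCAGACATGCCTaggca
GADD45A, in an intron, chr1:68152458-68152477: gtacaGAACATGTCTAAGCATGCTGgggac
PLK2, upstream of the gene, chr5:57758101-57758120: atgagAAACATGCCTGGACTTGCCCtgcac
PMAIP1, upstream of the gene, chr18:57566781-57566800: tttctGGGCTTGTTTACCCAAGTCTctaat
Counted from the start of the gene model, the element of CDKN1A lies at -69, that of PMAIP1 at -389 and that of BTG2 at -1839. The match in FAS lies 662 bases, that in SPATA18 636 bases and that in EDA2R 693 bases after the start. The first 6 genes are among those with the largest falls under the p53 hairpin, and the last 2 are among the 3 that did not pass that test. A match is a description of letters in a window, not a binding site, and genes without one have no such letters in this window.

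Library totals ran from 1903607 counts in replicate 4 of OIS to 24890797, and all other libraries held at least 13904974. The pair of replicates most alike differed more than sampling noise allows, at a chi-square of 1.7 per degree of freedom. Each library was counted as 1 sample, although this value cannot tell separate cultures from separate libraries of 1 culture. In the second experiment the libraries numbered 1 to 3 stood apart from those numbered 4 and 5 in every group, with a chi-square per degree of freedom of 1.9 to 24 for pairs within a set and 13 to 80.6 for pairs across the sets. The labels give no batch, and both sets hold every group. All 10 fibroblast markers, collagen genes among them, were detected at a median of at least 1 CPM in every IMR90 group, at a summed level of 39120 to 48904 CPM in Grow and 6664 to 7973 CPM in OIS, against 3 of 10 in H1299. Epithelial markers summed to at most 141 CPM in IMR90 and to 817 to 1141 CPM in H1299. By number, 5 of 8 were detected in Grow and 4 in OIS, against 3 in H1299, where KRT8 and KRT18 led. Among the endothelial and immune markers matched, TEK (median 148 CPM) and CD68 (19.1 CPM) led in Grow, with the others below 1 CPM. In bulk samples, fewer cells that express a gene and less RNA per cell cannot be told apart.

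The p53 hairpin lowered nearly the whole list of p53 targets in senescent cells, a list chosen with earlier results of these data known. Of the 34 targets, 31 were lower and 0 higher in OIS-shp53 than in OIS-v-v (5 libraries each, edgeR quasi-likelihood test, adjusted p under 0.05), where 1.97% of the 13378 genes tested were lower and 2.47% higher. In all 31 every OIS-shp53 library lay below every OIS-v-v library, as in 3.36% of all genes tested. Over the 34 genes the log2 fold changes had a median of -0.81, against -0.0018 over all genes tested, and all 34 estimates were below 0. The plot of levels per library shows 8 of the targets in the 5 groups of this experiment.

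**Figure D1:**
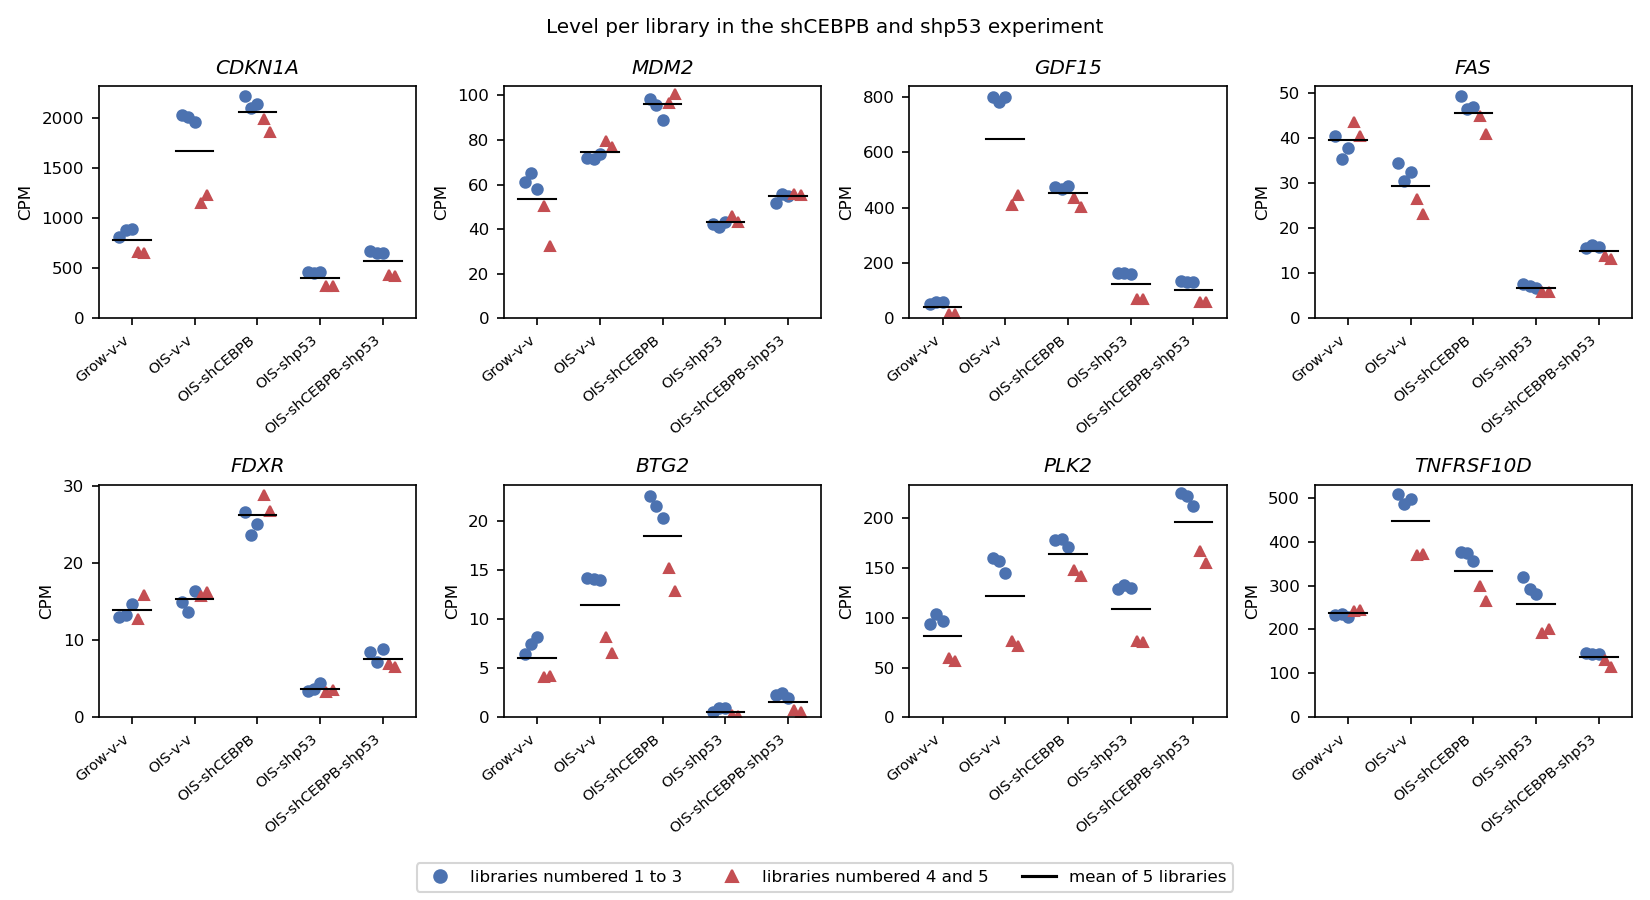
Level in CPM (linear axis from 0) of 8 target genes in each library of the 5 groups of the second experiment, with the mean of 5 libraries as a bar. Circles are the libraries numbered 1 to 3 and triangles those numbered 4 and 5, and CDKN1A in OIS-v-v splits into 1954 to 2025 CPM and 1152 to 1227 CPM, while every OIS-shp53 library lies at or below 467 CPM.

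All 4 targets that act back on p53 fell. MDM2, which marks p53 for degradation, stood at 71.7, 71.6, 73.8, 79.5 and 76.6 CPM in OIS-v-v and at 42.4, 40.9, 43.1, 45.7 and 43.2 CPM in OIS-shp53. The spread within each group was small beside the gap, and MDM2 fell by 0.80 ± 0.05 (log2, edgeR adjusted p = 7.59e-06). ZMAT3, an RNA-binding zinc finger protein that acts on splicing, stood at 130, 127, 135, 128 and 109 CPM in OIS-v-v and at 68.1, 63.1, 61.3, 54.1 and 52.5 CPM in OIS-shp53. No library of one group reached the other, and the log2 fold change was -1.07 ± 0.08. PPM1D, a phosphatase that switches p53 signalling off, and CCNG1, cyclin G1, which recruits a phosphatase to MDM2, fell by 0.56 and 0.84.

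Among the 5 genes of cell cycle arrest, 4 fell, and they differed widely among themselves. CDKN1A, the gene of p21, stood at 2025, 2002, 1954, 1152 and 1227 CPM in OIS-v-v and at 467, 451, 464, 326 and 319 CPM in OIS-shp53. The libraries numbered 4 and 5 were the low ones in both groups, yet the groups lay far apart, and CDKN1A fell by 2.04 ± 0.19 (edgeR adjusted p = 0.000131). BTG2, an antiproliferative factor that promotes mRNA deadenylation, stood at 14.2, 14.1, 14, 8.16 and 6.55 CPM in OIS-v-v and at 0.545, 0.958, 0.997, 0.241 and 0.128 CPM in OIS-shp53. This was the largest estimate of the list, at -4.30 ± 0.39 (adjusted p = 0.000108), and it rests on 2 to 19 counts per OIS-shp53 library. GADD45A, a growth arrest protein induced by DNA damage, fell by 0.78 and PLK3, a polo-like stress kinase, by 0.51.

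PLK2, the other polo-like kinase, was 1 of the 3 genes that did not pass. It stood at 160, 157, 145, 76.3 and 71.8 CPM in OIS-v-v and at 129, 133, 130, 76.4 and 76.0 CPM in OIS-shp53, with a log2 fold change of -0.16 ± 0.26 (edgeR adjusted p = 0.775). The libraries numbered 1 to 3 gave -0.24 and those numbered 4 and 5 gave 0.04. PLK2 is also 1 of the 2 genes whose element held no mismatch.

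All 5 receptors of the TNF receptor family fell. FAS, the death receptor for FAS ligand, stood at 34.5, 30.5, 32.6, 26.5 and 23.1 CPM in OIS-v-v and at 7.58, 7.18, 6.82, 5.94 and 5.77 CPM in OIS-shp53, a log2 fold change of -2.14 ± 0.12 (edgeR adjusted p = 3.65e-06). TNFRSF10C, a decoy receptor for TRAIL, was scarce, at 3.44, 4.55, 3.55, 1.89 and 2.28 CPM in OIS-v-v and at 0.461, 0.838, 0.735, 0.483 and 0.192 CPM in OIS-shp53. Its estimate of -2.52 ± 0.33 rests on 3 to 14 counts per OIS-shp53 library. EDA2R, the ectodysplasin A2 receptor, stood at 22.6, 22.6, 20.9, 20.5 and 15.7 CPM in OIS-v-v and at 8.38, 7.72, 7.98, 5.75 and 7.24 CPM in OIS-shp53, a log2 fold change of -1.47 ± 0.13. TNFRSF10B, a TRAIL receptor that signals for death, and TNFRSF10D, a TRAIL receptor with a truncated death domain, fell less, by 0.69 and 0.80.

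Of the 8 genes of mitochondrial apoptosis and its modulation, 7 fell, with estimates from -0.98 to -0.59. RPS27L, a ribosomal protein paralogue, stood at 96.2, 80.6, 99.4, 76.9 and 68.5 CPM in OIS-v-v and at 46.8, 48.2, 48.2, 35.5 and 35 CPM in OIS-shp53, a log2 fold change of -0.98 ± 0.13 (edgeR adjusted p = 0.00112). BBC3, which encodes the BH3-only protein PUMA, fell by 0.82, PHLDA3, an inhibitor of AKT, by 0.87, TP53INP1, a p53 cofactor, by 0.80, BAX, the pore-forming protein of the outer mitochondrial membrane, by 0.63, TRIAP1, an inhibitor of apoptosome formation, by 0.63 and AEN, an apoptosis nuclease, by 0.59. PMAIP1, which encodes the BH3-only protein NOXA, did not pass. It stood at 65.0, 56.1, 62.7, 94.5 and 72.9 CPM in OIS-v-v and at 60.5, 52.2, 54.2, 75.1 and 64.8 CPM in OIS-shp53, with a log2 fold change of -0.20 ± 0.14 (adjusted p = 0.475).

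The 4 genes of DNA repair and nucleotide supply all fell. DDB2, which recognises ultraviolet damage for nucleotide excision repair, stood at 33.1, 30, 30.7, 34.4 and 31.5 CPM in OIS-v-v and at 12.3, 12.2, 13.7, 14.8 and 15.5 CPM in OIS-shp53, a log2 fold change of -1.23 ± 0.08 (edgeR adjusted p = 8.31e-06). RRM2B, the p53-induced subunit of ribonucleotide reductase, stood at 93.8, 86.7, 89.8, 68.2 and 66.4 CPM in OIS-v-v and at 40.5, 39.1, 35.1, 32.4 and 30.6 CPM in OIS-shp53, a log2 fold change of -1.19 ± 0.11. The falls of POLH, a translesion polymerase, and of XPC, another damage sensor of excision repair, were smaller at 0.50 and 0.32. XPC is also the member with the largest share of its exon bases in exons of another gene, at 12.4%.

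In the group of stress, redox and metabolism, 6 of 7 genes fell. FDXR, ferredoxin reductase of mitochondria, stood at 15, 13.6, 16.4, 15.8 and 16.3 CPM in OIS-v-v and at 3.39, 3.71, 4.41, 3.33 and 3.59 CPM in OIS-shp53, a log2 fold change of -2.07 ± 0.10 (edgeR adjusted p = 1.22e-06). SPATA18, a regulator of mitochondrial quality, stood at 26.6, 23.4, 23.1, 12.1 and 11.6 CPM in OIS-v-v and at 6.28, 5.45, 6.56, 1.5 and 1.99 CPM in OIS-shp53, a log2 fold change of -2.14 ± 0.39. Both groups of SPATA18 were lower in the libraries numbered 4 and 5. SESN1, a stress-inducible inhibitor of mTORC1, stood at 9.54, 8.62, 9.66, 9.24 and 8.05 CPM in OIS-v-v and at 5.32, 4.79, 4.93, 3.04 and 3.98 CPM in OIS-shp53, a log2 fold change of -1.03 ± 0.14. CMBL, a hydrolase, fell by 0.89, TIGAR, a bisphosphatase that lowers glycolytic flux, by 0.61 and TP53I3, a quinone oxidoreductase, by 0.58. SESN2, the paralogue of SESN1, did not pass, at 35.1, 33, 35.7, 47.1 and 45.5 CPM in OIS-v-v and at 22.1, 22.4, 23.4, 36.6 and 32.1 CPM in OIS-shp53, where replicate 4 of OIS-shp53 overlapped the control libraries numbered 1 to 3.

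GDF15, a secreted member of the TGF-beta superfamily, was the only secreted factor on the list. It stood at 800, 780, 799, 410 and 446 CPM in OIS-v-v and at 162, 165, 159, 69.9 and 69.1 CPM in OIS-shp53. The groups did not overlap, with a log2 fold change of -2.37 ± 0.31 (edgeR adjusted p = 0.00122).

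The replicate numbers of this experiment paired the libraries, and with the number as a block 33 of the 34 genes were lower. PMAIP1 (log2 -0.19, adjusted p = 0.013) and SESN2 (-0.54, adjusted p = 2.82e-05) then passed and PLK2 did not, while the share of all genes called rose from 4.44% to 22.7%. In the libraries numbered 1 to 3 alone 33 genes were lower, where 16.5% of all genes were, and in those numbered 4 and 5 alone 30, where 2.27% were. HRAS, the gene of the inducing oncogene, stood at 1051 ± 24.5 CPM in OIS-shp53 and 1231 ± 113 CPM in OIS-v-v (SD, n = 5, log2 -0.23, adjusted p = 0.0835), and its part in these differences was not tested.

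Falls were found in members with and without an element near the start, and whether the shares differ was not tested. Under the p53 hairpin 12 of 14 members with an element were lower, with a median log2 fold change of -0.98, and 19 of 20 without one, with a median of -0.80. Among the genes outside the list, 10 of 301 with an element (3.32%) and 223 of 13043 without one (1.71%) were lower. Those called higher were 11 with an element (3.65%) and 319 without one (2.45%).

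With C/EBPβ, a transcription factor of the senescent secretome, also lowered, the p53 hairpin also lowered nearly the whole list. Of the 34 targets 32 were lower and 0 higher, where 6.71% of the 13418 genes tested were lower and 8.14% higher. The groups of all 32 did not overlap, as in 5.45% of all genes tested, and the median of the list was -0.82.

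The largest falls were again in BTG2 and TNFRSF10C. BTG2 stood at 22.5, 21.5, 20.3, 15.2 and 12.9 CPM in OIS-shCEBPB and at 2.28, 2.47, 1.92, 0.795 and 0.596 CPM in OIS-shCEBPB-shp53, a log2 fold change of -3.51 ± 0.29. CDKN1A stood at 2220, 2091, 2138, 1990 and 1859 CPM in OIS-shCEBPB and at 674, 653, 654, 430.0 and 426 CPM in OIS-shCEBPB-shp53. Its fall of 1.86 ± 0.14 (edgeR adjusted p = 3.44e-06) is that of a gene whose 5 control libraries lay close together in this background. MDM2 stood at 98.3, 95.7, 88.9, 96.3 and 101 CPM in OIS-shCEBPB and at 51.7, 55.8, 55, 55.5 and 55.4 CPM in OIS-shCEBPB-shp53, a log2 fold change of -0.81 ± 0.05.

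The further named falls were -2.54 for TNFRSF10C, -2.12 for GDF15, -1.80 for SPATA18, -1.78 for FDXR, -1.62 for FAS, -1.30 for TNFRSF10D, -1.18 for EDA2R, -1.14 for RRM2B, -1.12 for ZMAT3, -1.08 for CMBL and -1.0 for SESN1, each past the threshold. SESN2 passed here as well, at -0.61 ± 0.13 (edgeR adjusted p = 0.00929). PMAIP1 (-0.06 ± 0.10, adjusted p = 0.731) and PLK2 (0.26 ± 0.11, adjusted p = 0.133) did not, and with the replicate block PLK2 passed as higher (0.25, adjusted p = 0.000127). HRAS was lower in OIS-shCEBPB-shp53, at 662 ± 22.7 against 831 ± 43.3 CPM (log2 -0.33, adjusted p = 0.000988), and its part in these falls was not tested.

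The effects of the p53 hairpin in both backgrounds come from separate libraries and can be set side by side. Of the 34 genes 31 were lower in both, 33 had the same sign and the median absolute difference between both estimates was 0.08 on the log2 scale. Across the 34 genes, which are not independent replicates, Pearson's r was 0.97. The plot of both effects shows most genes on the diagonal, with FAS and BTG2 above it and TNFRSF10D below it.

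**Figure D2:**
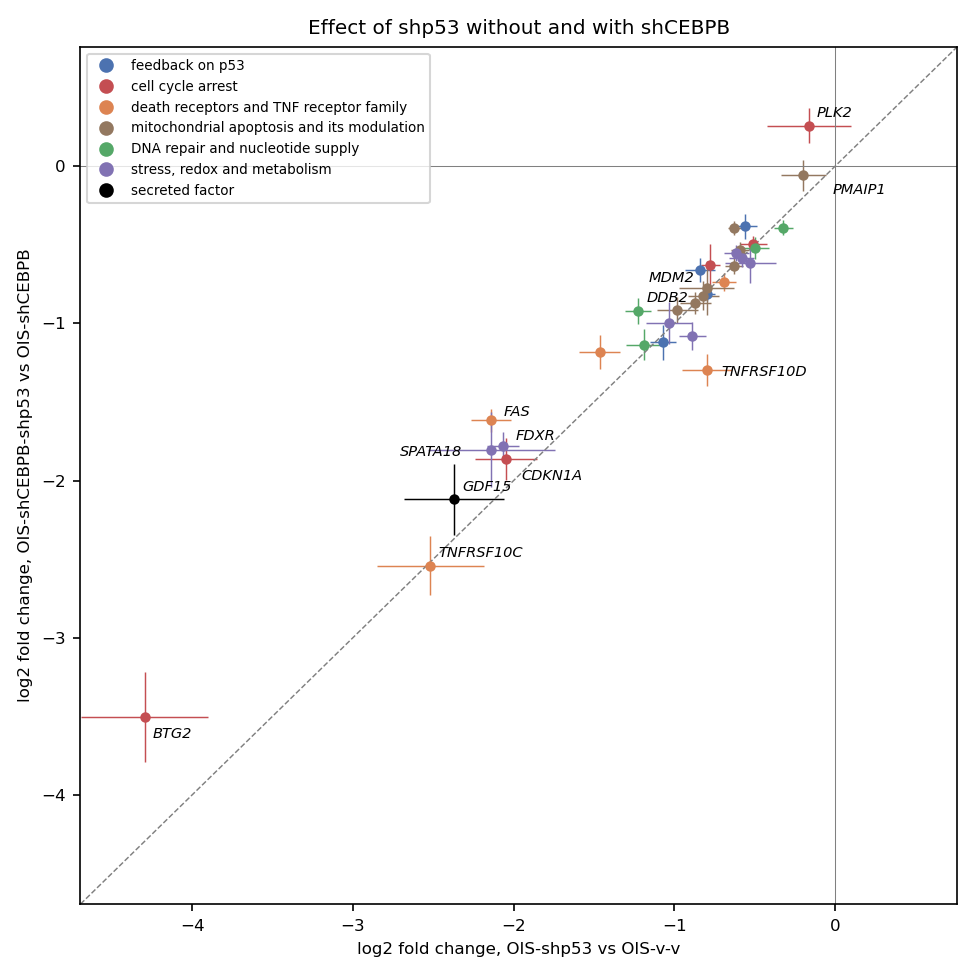
Log2 fold change of each of the 34 genes under the p53 hairpin without (x axis) and with (y axis) the C/EBPβ hairpin, with standard errors as bars, colours by role and the line of equal effects dashed. Most genes lie on or near the dashed line, from PLK2 at -0.16 and 0.26 to BTG2 at -4.30 and -3.51.

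The difference between both effects was tested as an interaction over the 4 groups. None of the 34 genes passed in edgeR, where 3 of 13873 genes were higher and 3 lower (0.0216% each way), and 5 of the 34 had an unadjusted p under 0.05 while DESeq2 called 1. The largest estimates were 0.79 ± 0.56 for BTG2, 0.53 ± 0.15 for FAS (adjusted p = 0.45) and -0.50 ± 0.20 for TNFRSF10D (adjusted p = 0.924). CDKN1A gave 0.19 ± 0.25, and MDM2 gave -0.02 ± 0.06 with the smaller error.

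With the replicate block the interaction passed for 3 genes, which were named after their values were seen, and for 0.75% of all genes tested. FAS gave 0.52 (edgeR adjusted p = 0.00248) and BAX 0.24 (adjusted p = 0.0158), so their fall under the p53 hairpin was smaller in the C/EBPβ background, and TNFRSF10D gave -0.48 (adjusted p = 0.00248), a larger fall. In the libraries numbered 1 to 3 alone 7 genes passed as higher and 1 as lower, where 1.43% of all genes were higher and 1.89% lower. In those numbered 4 and 5 none passed as higher and 2 as lower, where 0.825% and 1.30% of all genes were. CDKN1A turned its sign between the sets, at 0.41 and -0.28, as did GDF15 at 0.46 and -0.18.

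The C/EBPβ hairpin alone raised most of the p53 targets. CEBPB fell by 3.06 ± 0.13 on the log2 scale (edgeR adjusted p = 2.71e-08). Of the 34 targets 22 were higher and 1 lower in OIS-shCEBPB than in OIS-v-v, where 9.09% of the 13396 genes tested were higher and 8.0% lower. In 20 genes every OIS-shCEBPB library lay above every OIS-v-v library, as in 8.02% of all genes tested. The median of the list was 0.35. All 4 genes of DNA repair and nucleotide supply, 6 of 8 of mitochondrial apoptosis and 5 of 7 of stress and metabolism were higher. Of the 5 genes of cell cycle arrest 1 was called higher, while 4 estimates lay above 0 and their median was 0.42.

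MDM2 rose from 71.7, 71.6, 73.8, 79.5 and 76.6 CPM to 98.3, 95.7, 88.9, 96.3 and 101 CPM, a log2 fold change of 0.36 ± 0.05 (edgeR adjusted p = 0.000549). FAS rose from 34.5, 30.5, 32.6, 26.5 and 23.1 CPM to 49.4, 46.4, 46.8, 45.0 and 40.9 CPM, a log2 fold change of 0.63 ± 0.10. In neither gene did the groups overlap. TNFRSF10C had the largest rise, 1.36 ± 0.21, followed by BBC3 at 0.77, FDXR at 0.76, CMBL at 0.69, DDB2 at 0.55, CCNG1 and SESN1 at 0.54, RRM2B at 0.52, GADD45A at 0.49 and POLH at 0.45, all past the threshold. Scaling to library sizes alone gave 25 genes higher and 1 lower and moved the share of higher calls among all calls from 53.2% to 70.9%. The call of RRM2B was lost when all 5 groups were fitted together, at an adjusted p of 0.0631 in edgeR.

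CDKN1A did not pass, at 0.30 ± 0.16 (edgeR adjusted p = 0.254). Its OIS-v-v libraries were the ones that split by number, so the difference was 0.10 in the libraries numbered 1 to 3 and 0.68 in those numbered 4 and 5. With the replicate block 28 of the 34 genes were higher and 2 lower, where 16.9% of all genes tested were higher and 15% lower. CDKN1A was among the former at 0.34 (adjusted p = 0.0153) with BTG2 at 0.71 (adjusted p = 2.74e-05), SPATA18 at 0.53 (adjusted p = 0.00545) and PLK2 at 0.49 (adjusted p = 0.00592). PLK2 gave 0.19 in the libraries numbered 1 to 3 and 0.95 in the others, and SPATA18 0.24 and 1.02.

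The 1 gene called lower was TNFRSF10D, which fell from 509, 485, 497, 369 and 373 CPM to 375, 374, 357, 300 and 265 CPM, with groups that overlapped and a log2 fold change of -0.42 ± 0.13 (edgeR adjusted p = 0.0378), a call lost in 6 of 10 repeats that each left out 1 library. GDF15, which did not pass, stood at 476, 466, 480, 435 and 403 CPM in OIS-shCEBPB, around the lower libraries of OIS-v-v, with a log2 fold change of -0.52 ± 0.19 (adjusted p = 0.0762). With the block GDF15 passed as lower (-0.47, adjusted p = 0.00613), at -0.75 in the libraries numbered 1 to 3 and -0.04 in those numbered 4 and 5. HRAS mRNA was lower in OIS-shCEBPB, at 831 ± 43.3 against 1231 ± 113 CPM (log2 -0.57, edgeR adjusted p = 0.000259). The part of this lower HRAS mRNA level in the changes of the list was not tested.

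When both hairpins were compared with the vector control, most of the list was lower. Of the 34 genes 26 were lower and 1 higher in OIS-shCEBPB-shp53 than in OIS-v-v, where 16.5% of the 13388 genes tested were lower and 17.1% higher. The groups of 19 genes did not overlap, as in 10.8% of all genes tested, and the median was -0.46. CDKN1A fell by 1.57 ± 0.20 and MDM2 by 0.46 ± 0.05 (edgeR adjusted p = 9.76e-05 and 2.07e-05). The named falls were -2.82 for BTG2, -2.65 for GDF15, -1.73 for TNFRSF10D, -1.33 for SPATA18, -1.18 for TNFRSF10C, -1.03 for FDXR, -0.99 for FAS, -0.91 for ZMAT3, -0.90 for EDA2R, -0.71 for TP53INP1 and -0.65 for SESN2. PLK2 was the gene that was higher, at 225, 222, 212, 167 and 155 CPM against 160, 157, 145, 76.3 and 71.8 CPM, a log2 fold change of 0.67 ± 0.23 (adjusted p = 0.038), a call lost in 5 of 10 repeats that each left out 1 library. HRAS was at 662 against 1231 CPM (log2 -0.91), and its part was not tested.

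Without any hairpin, senescence went with higher levels of most targets. Of the 34 targets 24 were higher and 4 lower in the 8 OIS than in the 8 Grow libraries, where 38.8% of the 13304 genes tested were higher and 35.9% lower. The OIS libraries of 16 genes lay wholly above those of Grow, and those of 2 genes wholly below, against 19% and 24.7% of all genes tested. The median of the list was 0.47, against 0.03 over all genes. In the second experiment 15 genes were higher and 5 lower, where 22.7% of the 13344 genes tested were higher and 23.2% lower. The first experiment had smaller standard errors, more libraries and less distance between replicates. Its pairs reached a chi-square per degree of freedom of 22, against 80.6 across the sets of the second. The part of each in the standard errors was not tested.

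**Figure D3:**
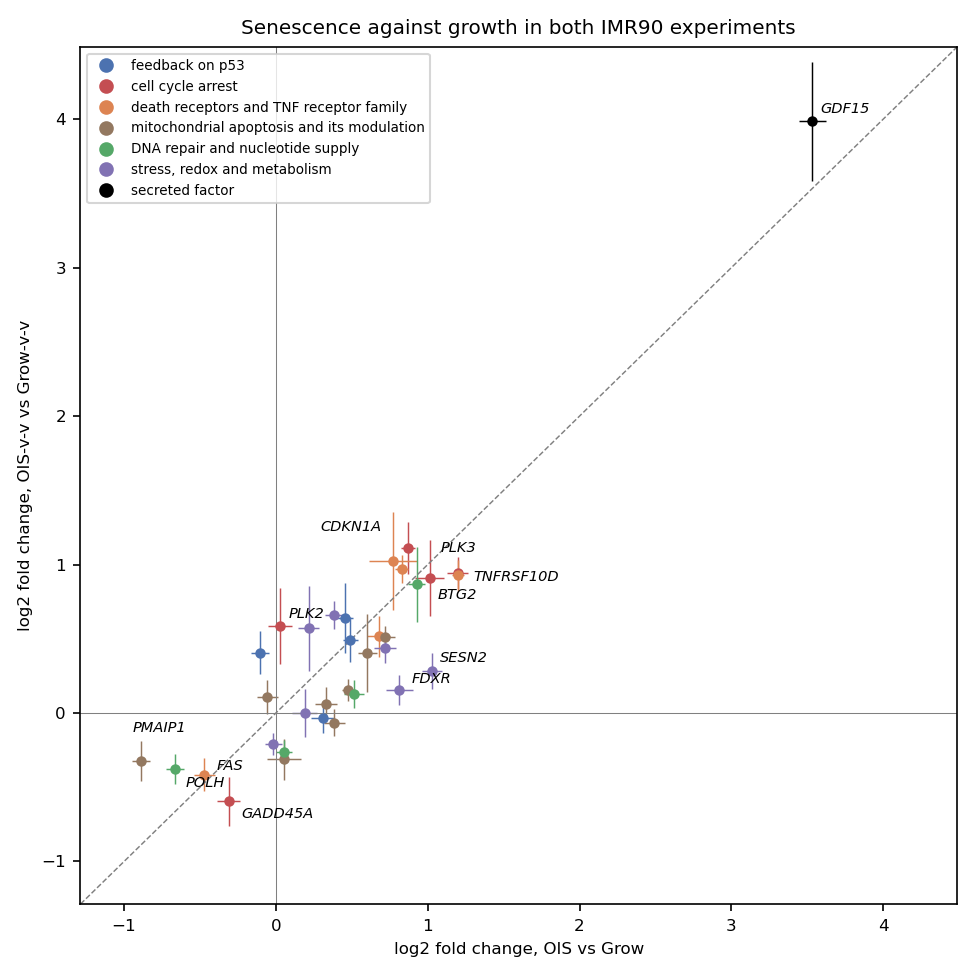
Log2 fold change of each of the 34 genes in senescent against proliferating IMR90 cells in the first (x axis, 8 libraries per group) and the second experiment (y axis, 5 per group), with standard errors as bars, colours by role and the line of equal effects dashed. GDF15 stands alone at 3.53 and 3.99, and FAS, POLH, GADD45A, PMAIP1 and TP53I3 lie below 0 on both axes.

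GDF15 rose most in both experiments. It ran from 19.5 over 22.8 to 33.8 CPM in Grow and from 198 over 281 to 314 CPM in OIS, a log2 fold change of 3.53 ± 0.09 (edgeR adjusted p = 1.32e-23). In the second experiment it stood at 50.5, 60.1, 60.4, 17.4 and 17.1 CPM in Grow-v-v and at 800, 780, 799, 410 and 446 CPM in OIS-v-v, a log2 fold change of 3.99 ± 0.40. No OIS library of either experiment reached the range of proliferating cells.

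CDKN1A and MDM2 rose in both experiments without overlap. CDKN1A ran from 671 over 727 to 786 CPM in Grow and from 1085 over 1295 to 1384 CPM in OIS, a log2 fold change of 0.87 ± 0.05 (edgeR adjusted p = 2.11e-16), and rose by 1.11 ± 0.18 in the second experiment, from 812, 881, 891, 665 and 652 CPM. MDM2 ran from 69.6 over 77.2 to 84.1 CPM in Grow and from 91.2 over 108 to 115 CPM in OIS, a log2 fold change of 0.49 ± 0.05, and its estimate in the second experiment was 0.49 ± 0.15, from 61.3, 65.2, 58.0, 50.3 and 32.3 CPM. The named rises of the first experiment were 1.20 for TNFRSF10D and PLK3, 1.03 for SESN2, 1.01 for BTG2, 0.93 for RRM2B, 0.83 for TNFRSF10B, 0.81 for FDXR, 0.77 for TNFRSF10C and 0.72 for CMBL and TRIAP1. Those of the second were 1.02 for TNFRSF10C, 0.97 for TNFRSF10B, 0.94 for PLK3, 0.93 for TNFRSF10D, 0.91 for BTG2, 0.87 for RRM2B, 0.66 for TIGAR, 0.64 for ZMAT3, 0.52 for EDA2R and 0.51 for TRIAP1. SESN2 (0.28, adjusted p = 0.0711) and FDXR (0.16, adjusted p = 0.224) passed in the first experiment alone, and the difference between experiments was not tested.

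A minority of targets fell in senescence although p53 targets as a list had a median above 0. PMAIP1 ran from 102 over 110 to 116 CPM in Grow and from 51.3 over 54.7 to 70.9 CPM in OIS, a log2 fold change of -0.89 ± 0.06 (edgeR adjusted p = 3.92e-14), with -0.32 (adjusted p = 0.0668) in the second experiment, where the replicate block made it a call (-0.34, adjusted p = 0.0228). POLH fell by 0.66, FAS by 0.47 and GADD45A by 0.31 in the first experiment. In the second FAS stood at 40.5, 35.4, 37.8, 43.6 and 40.5 CPM in Grow-v-v against 34.5, 30.5, 32.6, 26.5 and 23.1 CPM in OIS-v-v, a log2 fold change of -0.41 ± 0.11 (adjusted p = 0.00901). GADD45A fell by 0.60, POLH by 0.38, DDB2 by 0.26 and TP53I3 by 0.21 there, the last a call lost in 6 of 10 repeats without 1 library.

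Set side by side, 14 genes were higher in both experiments, 3 lower in both (FAS, GADD45A and POLH) and none was called in opposite directions. The estimates had the same sign in 27 of 34 genes. Pearson's r across the genes, which are not independent replicates, was 0.90. GDF15 stood far from the others at 3.53 and 3.99, and r without it was not computed. FAS, GADD45A and POLH were also lower in OIS-shp53 than in OIS-v-v, a comparison that shares the OIS-v-v libraries. In the second experiment ZMAT3 lost its call in 6 of 10 repeats that each left out 1 library and TNFRSF10C in 2, and the libraries numbered 1 to 3 alone gave 8 genes lower, where 33.8% of all genes were, and a median of 0.23 in place of 0.40. Scaling to library sizes alone moved the median of all genes in OIS against Grow to 0.22 and the share of higher calls among all calls from 51.9% to 66.2%, and gave 27 genes higher and 3 lower, with a median of 0.65 for the list.

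Levels within a group can be compared between genes only per length, as median CPM per kilobase of exon. In OIS, CDKN1A led the list at 433, followed by TNFRSF10D at 172, GDF15 at 134, TNFRSF10B at 74.8 and BAX at 58.0. At the low end stood SESN1 at 2.25, BBC3 at 1.79 and TNFRSF10C at 1.42. CDKN1A mRNA thus stood far above every other gene of the list per length, and BBC3 and PMAIP1 (24.4), both of BH3-only proteins, differed widely.

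Most p53 targets did not pass the test under the HMGA1 hairpin in proliferating cells. HMGA1, an architectural chromatin protein, fell by 3.79 ± 0.07 in Grow-shA1 (edgeR adjusted p = 2.49e-24). In Grow-shA1 6 targets were higher and 6 lower, where 14.8% of the 13072 genes tested were higher and 15.1% lower. The shares of the list lie near these, and its median was -0.07. CDKN1A ran from 618 over 653 to 797 CPM in Grow-shA1 against 671 over 727 to 786 CPM in Grow (-0.12 ± 0.05, adjusted p = 0.0523), and MDM2 gave -0.03 ± 0.06.

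The named falls in Grow-shA1 were -0.48 for TNFRSF10D, -0.44 for CCNG1, -0.43 for SESN2, -0.37 for BTG2, -0.27 for TNFRSF10B and -0.16 for POLH. The rises were 0.43 for GDF15, 0.30 for XPC, 0.28 for TP53INP1, 0.24 for PPM1D and 0.18 for PMAIP1 and DDB2. TNFRSF10D ran from 168 over 191 to 219 CPM against 252 over 272 to 291 CPM in Grow, without overlap. HRAS was higher in Grow-shA1 (0.20, edgeR adjusted p = 0.0041), and its part was not tested.

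In senescent cells with the HMGA1 hairpin, more targets fell than rose. HMGA1 fell by 3.62 ± 0.06 (edgeR adjusted p = 1.49e-25). In OIS-shA1 14 targets were lower and 2 higher, where 17.1% of the 13327 genes tested were lower and 18.8% higher, and the median was -0.10. CDKN1A ran from 1140 over 1197 to 1313 CPM (-0.09 ± 0.05, adjusted p = 0.147) and MDM2 from 96.8 over 110 to 123 CPM (0.05 ± 0.05, adjusted p = 0.445), so neither passed.

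The 2 genes that rose in OIS-shA1 were also called higher in Grow-shA1, and the call of PMAIP1 there ended when all groups were fitted together (0.18, edgeR adjusted p = 0.0977). GDF15 ran from 397 over 441 to 500.2 CPM, above all OIS libraries, a log2 fold change of 0.71 ± 0.07 (edgeR adjusted p = 2.59e-09), and PMAIP1 rose by 0.50 ± 0.10. The largest fall was in TNFRSF10D, from 380 over 408 to 430 CPM against 575 over 611 to 620 CPM in OIS, at -0.59 ± 0.04 (adjusted p = 8.13e-13). The further named falls were -0.42 for BTG2, -0.41 for GADD45A, -0.38 for SESN2, -0.35 for PLK2 and PLK3, -0.32 for POLH, -0.28 for AEN and -0.27 for ZMAT3 and PPM1D. Scaling to library sizes alone gave 2 genes higher and 19 lower, and moved the share of higher calls among all calls from 52.3% to 27.8%. HRAS was lower in OIS-shA1 (-0.21, adjusted p = 0.0139), and its part was not tested.

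**Figure D4:**
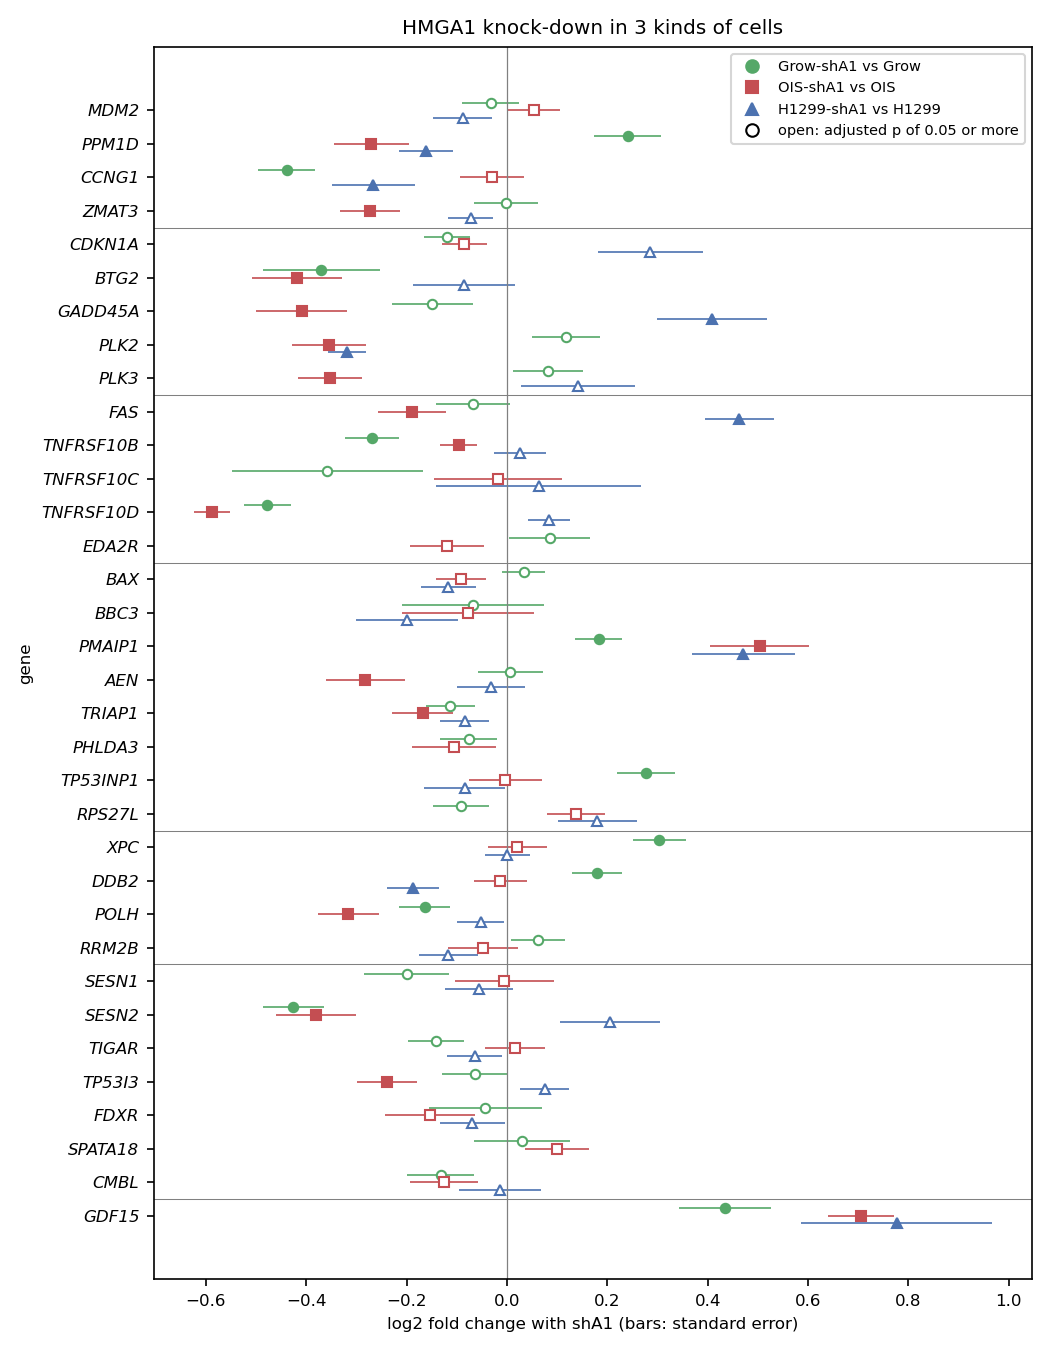
Log2 fold change of each target under the HMGA1 hairpin in proliferating IMR90 (circles), senescent IMR90 (squares) and H1299 cells (triangles), with standard errors as bars and open symbols for adjusted p of 0.05 or more, ordered by role. GDF15 lies at 0.43, 0.71 and 0.78 and PMAIP1 at 0.18, 0.50 and 0.47, while TNFRSF10D is lower in both IMR90 states (-0.48 and -0.59) and at 0.08 in H1299.

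Whether the HMGA1 effect differed between growth and senescence was tested as an interaction. It passed for 3 genes as higher and 8 as lower, where 12.2% of the 13903 genes tested were higher and 11.4% lower, and the median was -0.08. PPM1D had the largest estimate at -0.51 ± 0.10 (edgeR adjusted p = 0.000249), with 0.24 in Grow-shA1 and -0.27 in OIS-shA1. PLK2 gave -0.47 and PLK3 -0.43. CCNG1 gave 0.41, with -0.44 in Grow-shA1 and -0.03 in OIS-shA1. CDKN1A (0.03 ± 0.07) and MDM2 (0.09 ± 0.08) did not pass. Set side by side, GDF15 and PMAIP1 were higher and BTG2, POLH, SESN2, TNFRSF10B and TNFRSF10D lower in both states, and PPM1D was called in opposite directions. With library sizes alone 1 gene was higher and 14 lower.

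H1299 cells show the list without p53 protein. Of the 34 targets 31 passed the filter on low counts. EDA2R (1 to 5 counts per H1299 library), PHLDA3 (0 to 4) and SPATA18 (0 to 1) did not, and GDF15 had 10 to 15 counts. TNFRSF10C was scarce too, at 0.81 to 1.90 CPM per H1299 library. PLK3 and BTG2 were also scarce, at medians of 1.68 and 1.74 CPM per kilobase. By the same measure CCNG1 at 81.2, PLK2 at 46.2, BAX at 38.4 and TIGAR at 34.1 led the list. CDKN1A was at 28.3 CPM per kilobase in H1299, against 433 in OIS, 2 values from tables normalised apart that are given side by side. Per library it ran from 80.0 to 127 CPM in H1299 and from 671 to 786 CPM in proliferating Grow. Cell line, the ER:HRAS oncogene and p53 status differ together between these cells, so their parts cannot be told apart.

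The HMGA1 hairpin lowered HMGA1 by 2.31 ± 0.05 in H1299 cells, and 4 of the 31 tested targets were higher and 4 lower, where 8.65% of the 14840 genes tested were higher and 6.93% lower. GDF15 gave 0.78 ± 0.19 (edgeR adjusted p = 0.00821), from 0.456 over 0.587 to 0.661 CPM against 0.618 over 1.04 to 1.39 CPM, at very low counts. PMAIP1 rose by 0.47, FAS by 0.46 and GADD45A by 0.41. FAS ran from 18 over 20.7 to 22.8 CPM, above all H1299 libraries at 13 over 15 to 16.7 CPM. PLK2 ran from 136 over 142 to 153 CPM against 171 over 176 to 190 CPM, a fall of 0.32 ± 0.04 without overlap (adjusted p = 1.24e-05). CCNG1 fell by 0.27, DDB2 by 0.19 and PPM1D by 0.16, the first of them lost in 7 and the last in 10 of 13 repeats without 1 library. CDKN1A (0.29 ± 0.10, adjusted p = 0.0695) and MDM2 (-0.09 ± 0.06, adjusted p = 0.348) did not pass.

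The upstream arm of the pathway was followed in 30 genes that regulate p53, of which 28 passed the filter in IMR90 and 29 in H1299. MDM4, the partner of MDM2 in holding p53 down, was scarce and passed in none of the 11 comparisons, at 2.59 ± 0.89 CPM in OIS-v-v and 2.07 ± 0.33 CPM in OIS-shp53 (SD, n = 5). In OIS against Grow 11 of the 28 regulators were higher and 8 lower, where 38.8% of all genes tested were higher and 35.9% lower. CDKN2A, whose products include the MDM2 inhibitor ARF and the kinase inhibitor p16, rose by 1.14 ± 0.14 (edgeR adjusted p = 2.52e-08) and HIPK2, a kinase of p53, by 0.65, while CHEK1, a checkpoint kinase, fell by 1.17 and PPP1R13L, an inhibitor of p53, by 1.06. In OIS-v-v against Grow-v-v 6 were higher and 6 lower, where 22.7% and 23.2% of all genes were, with CDKN2A at 1.31 and CHEK1 at -0.98. With the C/EBPβ hairpin 1 was higher and 3 were lower, where 9.09% and 8.0% of all genes were, and among the lower stood HIPK2 at -0.39 and TRIM24, a ubiquitin ligase for p53, at -0.32. With the HMGA1 hairpin 7 were higher and 7 lower in proliferating cells, where 14.8% and 15.1% of all genes were. The counts were 4 and 9 in senescent cells, against 18.8% and 17.1% of all genes, and 1 and 2 in H1299, against 8.65% and 6.93%.

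A list of 30 further p53 targets, of which 25 passed the filter in the second experiment, was followed as well. Under the p53 hairpin 9 were lower and 0 higher in edgeR, where 1.97% of all genes tested were lower and 2.47% higher. With the replicate block 15 were lower and 1 higher, where 10.7% and 12% of all genes were. CYFIP2, a subunit of the WAVE complex, fell by 2.91 ± 0.24 (adjusted p = 4.35e-05) and TRIM22, an antiviral ubiquitin ligase, by 2.60 ± 0.13 (adjusted p = 1.37e-06). In the C/EBPβ background 13 were lower and 0 higher, where 6.71% and 8.14% of all genes were, with CYFIP2 at -2.98 and TRIM22 at -1.72. The C/EBPβ hairpin alone raised 9 and lowered 3, where 9.09% of all genes were higher and 8.0% lower, with CYFIP2 at 1.94 and TRIM22 at 1.06 against NINJ1 at -0.71 and SUSD6 at -0.69. In OIS against Grow 14 were higher and 10 lower, where 38.8% and 35.9% of all genes were. E2F7, a repressor of cell cycle genes, had the largest rise at 1.69. The falls reached -1.56, and DRAM1, a regulator of autophagy, was among them at -0.87.

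Genes of the cell cycle that p21 lowers through RB family proteins were counted as a further list of 20. All 20 were lower in OIS than in Grow (median log2 fold change -3.40, with 35.9% of all genes tested lower) and in OIS-v-v than in Grow-v-v (-2.35, with 23.2% of all genes lower). Under the p53 hairpin 1 of 20 was higher in edgeR, CDC25C at 0.55, named after its value was seen, with all 20 estimates above 0, where 2.47% of all genes were higher. With the replicate block 13 were higher, where 12% of all genes were. The libraries numbered 1 to 3 alone gave 20 higher, where 17.6% of all genes were, and those numbered 4 and 5 gave 0 higher and 1 lower, where 3.05% and 2.27% were. With both hairpins 18 were higher than in OIS-v-v, at a median of 1.02, where 17.1% of all genes were higher, and 19 were higher than in OIS-shCEBPB, where 8.14% were. The C/EBPβ hairpin alone gave 2 higher, where 9.09% of all genes were, and with the block 16 higher and 2 lower, where 16.9% and 15% were. In OIS-shA1 9 were lower than in OIS and 0 higher, where 17.1% of all genes were lower and 18.8% higher.

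**Figure D5:**
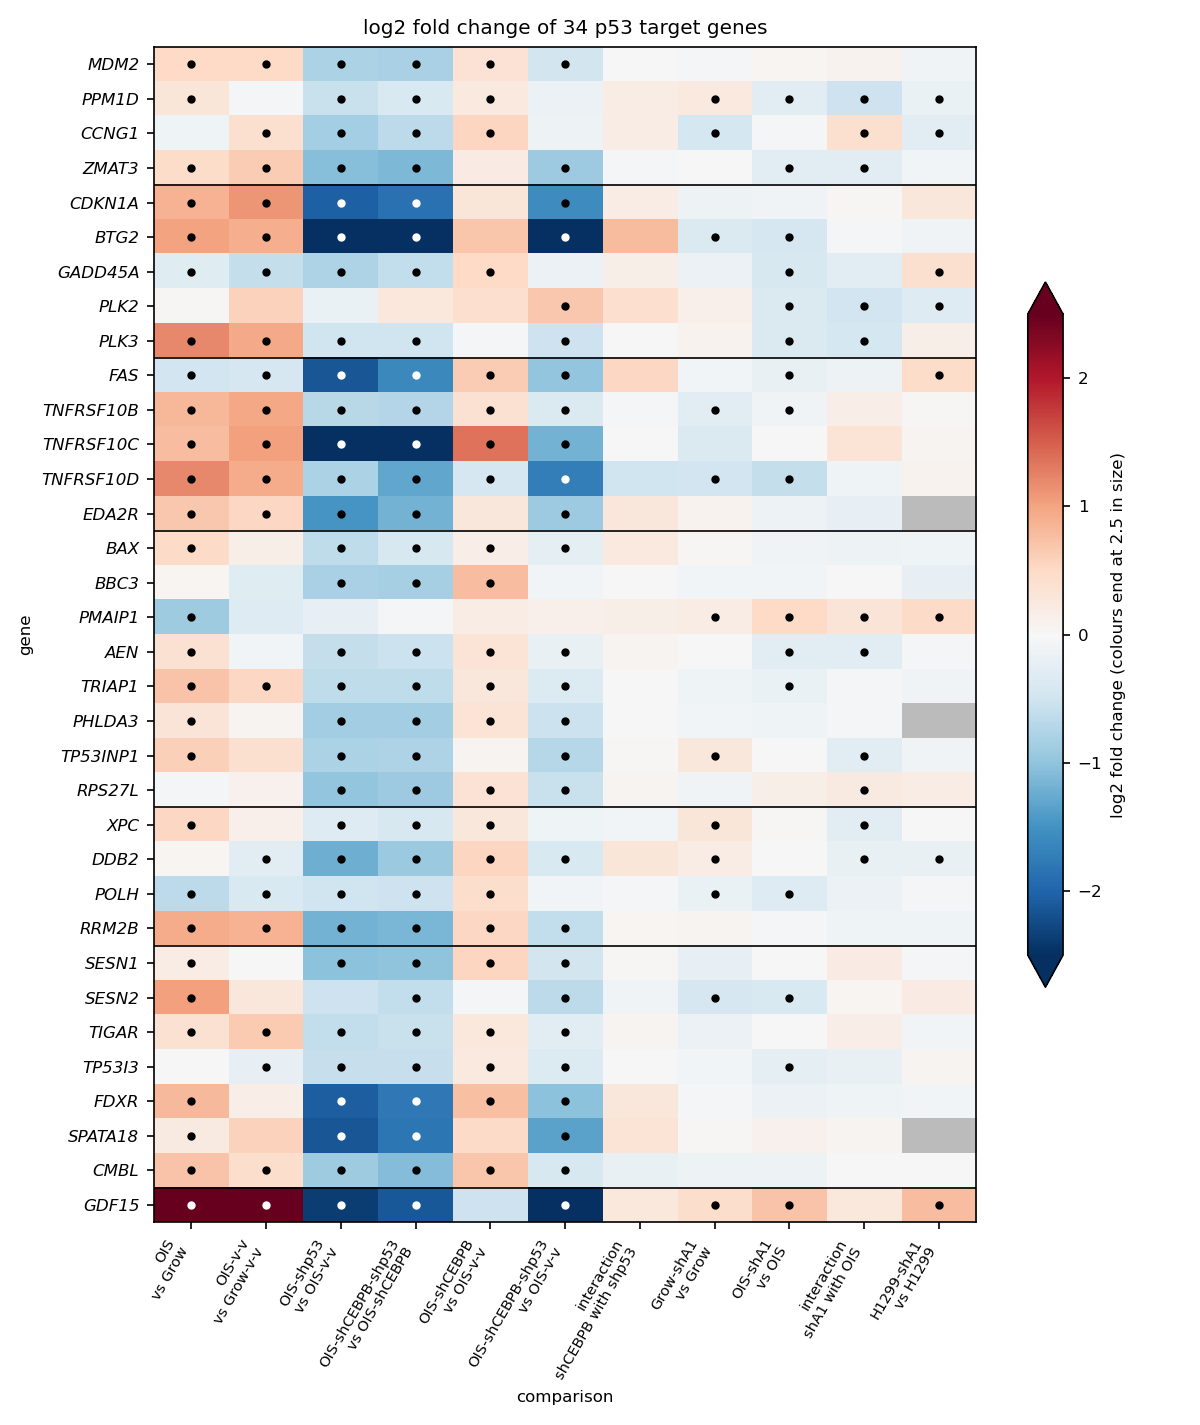
Log2 fold change (colour, red higher and blue lower, ending at 2.5 in size) of the 34 targets in 11 comparisons, with targets grouped by role between black lines, dots for adjusted p under 0.05 and grey for genes not tested. The columns of the p53 hairpin are blue in 31 and 32 dotted rows, the senescence columns are mostly red, and the columns of the HMGA1 hairpin are pale.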

How the data were processed

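Raw counts per gene were deposited by the authors, who used STAR for alignment to hg19 and featureCounts for counting over GENCODE annotation. The file headers give featureCounts version 1.5.2, while the paper's methods give a later one. Counting was by fragments in the first IMR90 table and by reads in H1299, in both without strand. The setting of the second table is not given in the sources used here. Without strand, reads of overlapping genes cannot be told apart (FAS shares 7.6% and MDM2 5.3% of exon bases). Labels give 6 biological replicates and the files 5 to 8.

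The 34 members, their roles and all other lists were chosen with earlier results of these data known. Genes were filtered with filterByExpr (minimum count 10), normalised by TMM and tested with edgeR 4.0.16 (R 4.3.3), using the quasi-likelihood test on the libraries of the groups compared, with Benjamini-Hochberg adjustment over all genes tested and a threshold of 0.05. Interactions were fitted over 4 groups. Standard errors are the log2 fold change divided by the root of F. CPM were computed from the deposited counts with TMM over all libraries of a table, and tables were normalised separately. The tests were checked on simulated data. CDKN1A, MDM2 and up to 12 further called members with the largest change were named in each comparison, with others named as exceptions after their values were seen, as were PLK2, PMAIP1, SESN2, FDXR and the lower genes in senescence. Alternatives were DESeq2 1.42.0, library sizes alone, other filters, thresholds and fits, leaving out each library, a replicate block and, added after seeing the data, libraries 1 to 3 and 4 to 5 apart. Replicate numbers were taken to pair libraries where every correlation of same-numbered deviations exceeded 0.1, as in 9 of 10 group pairs of the second experiment (0.039 to 0.751) and in none of the first (-0.552 to 0.491) or of H1299 (-0.304 to 0.489). Results for some genes are not reported here.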

Additional observations from a re-analysis of the deposited data

Results flagged for a closer look

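Within groups of 5 to 8 libraries, 13 of 194 tests of the highest or lowest library found a value farther from the rest than Dixon's 95% limit, where chance gives about 1 in 20. CDKN1A was at 797 CPM in replicate 8 of Grow-shA1 (others 618 to 689), at 1085 CPM in replicate 4 of OIS (others 1253 to 1384) and at 127 CPM in replicate 1 of H1299 (others 80.0 to 96.8). MDM2 was at 51.7 CPM in replicate 1 of OIS-shCEBPB-shp53 (others 55 to 55.8). SPATA18 was at 26.1 CPM in replicate 2 of OIS and at 29.7 CPM in replicate 7 of OIS-shA1. FDXR was at 9.06 CPM and RPS27L at 122 CPM in replicate 4 of OIS, the library with the lowest total. EDA2R was at 12.9 CPM in replicate 5 of Grow-shA1 and SESN1 at 10.3 CPM in replicate 4 of H1299-shA1. SESN2 was at 12.8 CPM in replicate 2 of Grow-shA1, at 35.6 CPM in replicate 5 of OIS-shCEBPB and at 15.8 CPM in replicate 7 of H1299-shA1.

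The effect of the HMGA1 hairpin differed between growth and senescence in 11 of the 34 targets by the interaction test of edgeR, where 23.6% of all 13903 genes tested passed. The log2 differences were -0.51 for PPM1D, 0.41 for CCNG1, -0.27 for ZMAT3, -0.47 for PLK2, -0.43 for PLK3, 0.32 for PMAIP1, -0.29 for AEN, -0.28 for TP53INP1, 0.23 for RPS27L, -0.28 for XPC and -0.19 for DDB2. Leaving out 1 of 32 libraries in turn ended the call of PMAIP1 in 17 repeats, RPS27L in 16, AEN in 13, DDB2 and TP53INP1 in 10 each and ZMAT3 in 3.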

How the results depend on the processing

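Of 3904 values of named genes under alternatives, 3620 kept their direction and side of the threshold, 208 lost and 65 gained the call, and 11 turned sign. Counts are given as higher and lower targets. The cause of each change was not tested.

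Requiring a fold of 1.5 left 14 and 2 in OIS against Grow, 1 lower in OIS-v-v against Grow-v-v, 5 and 0 for shCEBPB, 13 lower for both hairpins against OIS-v-v, 0 and 0 in Grow-shA1, 1 and 1 in OIS-shA1, 0 and 0 for the interaction of both shA1 contrasts and 1 and 0 in H1299. An adjusted p under 0.01 left 9 and 3 in OIS-v-v against Grow-v-v, 0 lower for shCEBPB, 0 higher for both hairpins, 1 and 4 for the interaction of shA1 and 1 lower in H1299. Library sizes alone gave a median of 0.654 in OIS against Grow and 1 and 14 for the interaction of shA1, and turned MDM2 to -0.033 in OIS-shA1 and CDKN1A to -0.081 and MDM2 to -0.029 in that interaction. The share of higher calls among all calls went from 50.9% to 71.0% for both hairpins and from 49.4% to 60.3% in Grow-shA1. DESeq2 gave 2 lower for shCEBPB and 1 higher for the interaction of shCEBPB with shp53.

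In the second experiment, libraries 1 to 3 gave 8 lower (median 0.233) in OIS-v-v against Grow-v-v, 1 higher for shp53 in the shCEBPB background, 2 lower for shCEBPB, 2 higher for both hairpins and 7 and 1 for the interaction, and turned PMAIP1 to 0.084 in the shCEBPB background. Libraries 4 and 5 gave 3 lower in OIS-v-v, 1 higher (median -1.002) in the shCEBPB background, 2 lower for shCEBPB and 2 lower for the interaction, and turned PLK2 to 0.041 for shp53 and, in the interaction, CDKN1A to -0.283 and GDF15 to -0.181. The batch term and the replicate block each gave 1 higher in the shCEBPB background, 2 lower for shCEBPB and 2 and 1 for the interaction. The block moved the share of all genes called from 17.1% to 31.9% for shCEBPB and from 14.8% to 33% in the shCEBPB background. In the first experiment and in H1299 the numbers do not pair the libraries, and the replicate block moved no count of targets there by over 1.5 times.

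Leaving out 1 library gave 23 to 24 and 4 to 5 in OIS against Grow, 12 to 15 and 3 to 6 in OIS-v-v (median 0.262 to 0.464), 30 to 31 lower for shp53 (median -0.876 to -0.801), 18 to 22 and 0 to 2 for shCEBPB, 0 to 1 and 25 to 26 for both hairpins, 6 and 6 to 8 in Grow-shA1, 2 to 3 and 11 to 15 in OIS-shA1, 1 to 5 and 4 to 8 for the interaction of shA1 and 4 to 6 and 2 to 6 in H1299. MDM2 ran from -0.048 to 0.005 in the interaction with shCEBPB and from -0.058 to 0.004 in Grow-shA1, and PMAIP1 from -0.123 to 0.012 in the shCEBPB background. Genes under about 20 counts per library (BTG2 and TNFRSF10C in OIS-shp53, GDF15 in H1299) limit how precisely their fold is known.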
